A study of Mus musculus with 2 samples.

Results

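The genes described here encode the calcium/calmodulin-dependent kinase II family (Camk2a, Camk2b, Camk2d and Camk2g), its inhibitor Camk2n1, the nuclear calmodulin kinase Camk4, the calcineurin subunits Ppp3ca, Ppp3cb and Ppp3r1, and the calmodulin-binding protein Nrgn. These 10 genes were taken by symbol from the transcript names of the deposited tables, out of 55536 annotated mouse genes. The study sequenced total RNA from a tissue that its labels call a layer of hippocampus, taken from adult female mice of strain 5xFAD/CAST at an age between 8 and 10 months. 5xFAD mice carry human transgenes with familial Alzheimer disease mutations under the Thy1 promoter, which is active in neurons, and CAST is a wild-derived mouse strain. Both libraries come from this one group, each from 300 ng of RNA with spike-in RNAs of the External RNA Controls Consortium (ERCC), and they are numbered as biological replicates 1 and 2. Their labels name separate tissue samples but share 1 donor record, so each SD below is a spread between 2 samples that may not be separate animals. No control group was analysed here, so the data give levels, transcript makeup and the spread between the 2 libraries, and no test was run.

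Calcium entering a neuron binds calmodulin, which activates both a kinase arm and a phosphatase arm. CaMKII is a holoenzyme of many kinase subunits that can phosphorylate itself and stay active after calcium falls, and it is a major component of the postsynaptic density of hippocampal excitatory synapses. Calcineurin, built from a catalytic A subunit and a regulatory calcium-binding B subunit, removes phosphates and is known for its part in synaptic depression and in sending NFAT transcription factors to the nucleus. Neurogranin, the product of Nrgn, holds calmodulin in the dendrite at low calcium.

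Replicates 1 and 2 held 27682992 and 32169915 expected counts on mouse genes, and the 10 genes took 0.681% and 0.723% of them. Levels are in TPM, a transcript abundance scaled by length and by library, so that genes can be compared with each other. Each of the 10 genes had 1 TPM or more in the 2 libraries, beside 27.7% of all mouse genes. Markers of neurons were present: all 7 glutamatergic, 8 GABAergic and 8 pan-neuronal markers passed that level, and Slc17a7, the vesicular glutamate transporter of hippocampal pyramidal and granule cells, stood at 476 ± 51.4 TPM (SD, n = 2). Markers of astrocytes (6 of 6, led by Gfap at 1148 ± 4.40 TPM), oligodendrocytes (7 of 7, led by Mbp at 865 ± 123 TPM) and microglia (6 of 6, led by C1qa at 158 ± 12.4 TPM) passed it as well, so the RNA was a mixture. The 6 astrocyte markers summed to 2887 and 2823 TPM, and the 8 pan-neuronal markers to 2465 and 2666 TPM. These sums depend on which genes were listed, so they do not show how much RNA came from each cell type. In such bulk RNA, fewer cells of a type and less RNA per cell cannot be told apart.

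The sequences that distinguish the isoforms are short cassette exons. They are shown first because the transcript results turn on which of them are kept. All are from the GENCODE M21 transcripts on mm10, written 5′ to 3′ on the strand of the gene. Calcineurin A has a 30-base exon shortly before its autoinhibitory segment, present in both Ppp3ca and Ppp3cb. In the Ppp3ca exon at chr3:136932011-136932040 (plus strand) and the Ppp3cb exon at chr14:20503247-20503276 (minus strand), capitals mark the 4 bases that differ, and the other 26 are identical.
Ppp3ca exon: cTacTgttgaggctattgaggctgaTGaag
Ppp3cb exon: cCacAgttgaggctattgaggctgaAAaag

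Camk2d has a pair of exons of equal length that its annotated transcripts use one in place of the other. They encode part of the kinase domain. They lie at chr3:126770785-126770857 and chr3:126771774-126771846 on the plus strand, 50 of their 73 bases are identical, and capitals mark the 23 that differ.
Camk2d upstream exon: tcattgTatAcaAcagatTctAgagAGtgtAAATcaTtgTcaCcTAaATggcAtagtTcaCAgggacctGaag
Camk2d downstream exon: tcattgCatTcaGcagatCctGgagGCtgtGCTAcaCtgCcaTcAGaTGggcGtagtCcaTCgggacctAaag

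In the variable region between the regulatory and association domains, Camk2d and Camk2g share a 33-base exon. In Camk2d it is known as the insert of the nuclear delta-B isoform, because it adds a nuclear localisation signal. The Camk2d exon lies at chr3:126802937-126802969 (plus strand) and the Camk2g exon at chr14:20747819-20747851 (minus strand). Capitals mark the 7 bases that differ out of 33.
Camk2d exon: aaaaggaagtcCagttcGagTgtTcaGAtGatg
Camk2g exon: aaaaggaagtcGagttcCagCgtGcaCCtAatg

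In the same variable region, Camk2b and Camk2d have an exon with a choice of 2 splice acceptors 3 bases apart. Ppp3cb has such an exon in its own transcript. Capitals mark the 3 bases kept only when the upstream acceptor is used. The Camk2b exon lies at chr11:5982721-5982761 (minus strand), the Camk2d exon at chr3:126801724-126801761 (plus strand) and the Ppp3cb exon at chr14:20509416-20509500 (minus strand). The first 14 bases of the Camk2b and Camk2d exons are identical.
Camk2b exon: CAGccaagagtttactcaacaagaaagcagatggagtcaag
Camk2d exon: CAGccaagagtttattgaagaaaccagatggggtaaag
Ppp3cb exon: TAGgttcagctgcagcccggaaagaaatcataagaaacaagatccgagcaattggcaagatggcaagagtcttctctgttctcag

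Among the kinases, Camk2a, the alpha subunit of forebrain excitatory neurons, was by far the most abundant. Its gene on chromosome 18 had a level of 1174 TPM in replicate 1, against 1294 TPM in the other library (1234 ± 84.3, SD, n = 2). This placed it eighth and seventh among nuclear protein-coding genes in the respective libraries. It was 80.6 times the median of the 13251 such genes detected in both libraries, which was 15.3 TPM. Of the Camk2a level, 299 and 348 TPM lay on Camk2a-207, an annotated fragment of 530 bases with incomplete ends. That fragment held 3.16% and 3.38% of the gene's counts. The rank, the multiple of the median, and the sums and ratios below that use Camk2a all include it.

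Camk2b, the beta subunit that also binds actin, lies on the minus strand of chromosome 11 and stood at 403 and 421 TPM (412 ± 12.9). Camk2g, the gamma subunit, lies on the minus strand of chromosome 14 and stood at 109 and 119 TPM (114 ± 7.39). Camk2d, the delta subunit best known from heart, lies on the plus strand of chromosome 3 and stood at 31.4 and 30.5 TPM (31.0 ± 0.615). The 4 levels did not overlap between subunits in either library, and the order alpha, beta, gamma, delta was the same in both.

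Summed over the 4 subunits, the family stood at 1718 and 1865 TPM (1791 ± 104). Camk2a made up 68.4% and 69.4% of that sum, Camk2b 23.5% and 22.6%, Camk2g 6.35% and 6.41%, and Camk2d 1.83% and 1.64%. Camk2a exceeded Camk2b by 2.91 times and 3.07 times, with the Camk2a fragment included. The leading transcripts alone stood at 714 and 778 TPM for Camk2a-203 and 340 and 369 TPM for Camk2b-209. Each subunit's percent of the kinase pool differed between the libraries by less than 1 percentage point.

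Camk2n1, which encodes a protein that binds and inhibits active CaMKII, stood at 139.3 and 139.9 TPM (139.6 ± 0.375), the smallest spread of the 10 genes relative to its mean. The CaMKII sum was 12.3 and 13.3 times the Camk2n1 level. Its paralogue Camk2n2, named after its value was seen, stood at 40.9 ± 1.15 TPM. Camk4, a monomeric kinase that phosphorylates CREB in the nucleus, was the lowest of the 10 at 25.2 and 26.4 TPM (25.8 ± 0.870), and Camk2a was 46.7 and 49.0 times higher. Its upstream kinases Camkk1 and Camkk2 stood at 53.4 ± 1.09 and 38.0 ± 0.573 TPM, and were also named after their values were seen.

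On the phosphatase side, Ppp3ca encodes the alpha catalytic subunit and lies on the plus strand of chromosome 3. It stood at 413 and 454.5 TPM (434 ± 29.1). Ppp3cb, the beta catalytic subunit on the minus strand of chromosome 14, stood at 108.5 and 113 TPM (110.6 ± 2.91). The alpha subunit exceeded the beta subunit by 3.81 times and 4.03 times. Ppp3r1, the regulatory B subunit on the plus strand of chromosome 11, stood at 276 and 301 TPM (289 ± 17.9).

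The catalytic transcripts together exceeded the regulatory transcript by 1.89 and 1.88 times. In the enzyme itself a catalytic subunit pairs with a regulatory one. The subunits known mainly from testis added little: Ppp3cc stood at 8.45 ± 0.0919 TPM, and Ppp3r2 stood below a TPM of 1 in both libraries, at 0.45 and 0.34 with 26 and 22 counts. The CaMKII sum was 3.29 times the catalytic calcineurin sum in each library.

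Nrgn, on the minus strand of chromosome 9, stood at 497 and 567 TPM (532 ± 49.0), second among the 10 and with the largest spread relative to its mean. Camk2a exceeded it by 2.36 and 2.28 times. Of the calmodulin genes, Calm2 stood at 814 ± 54.9 TPM and Calm3 at 738 ± 54.4 TPM.

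Ordered by mean level, the genes ran Camk2a, Nrgn, Ppp3ca, Camk2b, Ppp3r1, Camk2n1, Camk2g, Ppp3cb, Camk2d and Camk4. The order was the same within each library for the pairs that lay closest, Ppp3ca above Camk2b and Camk2g above Ppp3cb. The place of Camk2g depends on annotated fragments with incomplete ends, which held 25.4% and 27.2% of its TPM and 7.26% and 8.31% of its counts. Camk2g-215, a noncoding transcript of 535 bases, held a further 12.1% and 11.2% of TPM on 2.53% and 2.49% of counts. Ppp3cb had no fragments with incomplete ends. Its counts were higher than those of Camk2g, at 6532 and 7844 against 4441 and 5242. Across libraries the gene table's ranges of both pairs overlapped, and 2 libraries do not settle whether these neighbours differ. A second quantification, a transcript table with the count column est_counts, was summed to genes for comparison. In it no neighbouring ranges overlapped and the order was the same. There 33.2% and 35.3% of Camk2g TPM lay on fragments with incomplete ends, and 0.453% and 7.97% on Camk2g-215. This second quantification gave lower levels for 7 of the 10 genes, between 0.879 times (Ppp3r1) and 1.02 times (Camk4) the gene table.

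**Figure D1:**
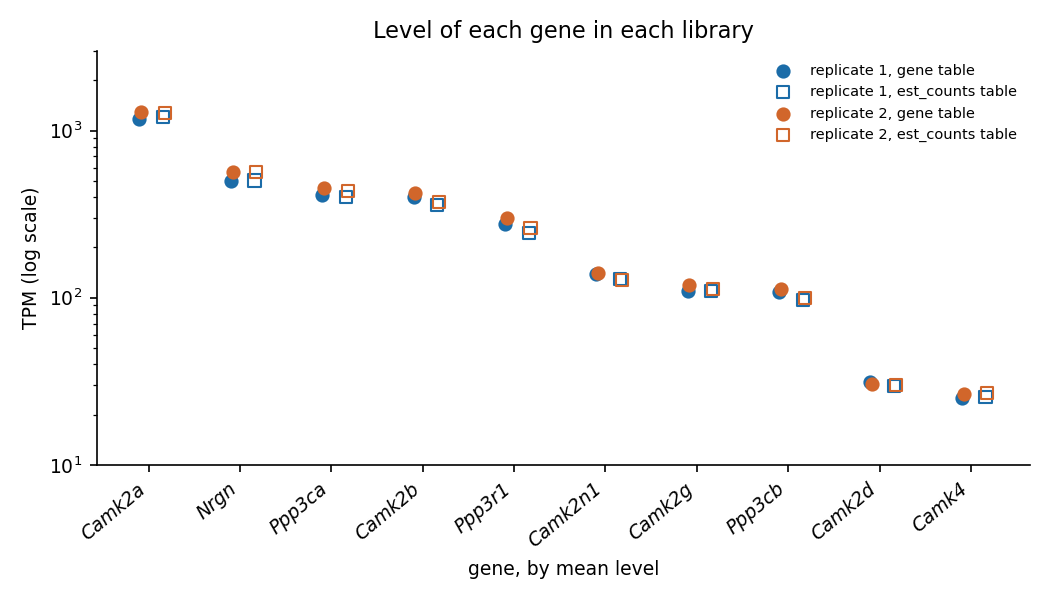
Level of each gene in TPM on a log axis, with filled circles for the gene table and open squares for the est_counts table, coloured by replicate. Points of 1 gene lie close together beside the distance between most genes, and the neighbours Ppp3ca and Camk2b, and Camk2g and Ppp3cb, are the closest.

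The partners of these enzymes were measured from gene lists chosen by function. All 12 listed postsynaptic partners of CaMKII passed the same level of 1 TPM, led by the scaffold Dlg4 (312 ± 13.1 TPM) and the glutamate receptor subunits Gria1 (252 ± 15.3) and Grin1 (158 ± 4.55). All 12 genes listed as other calmodulin kinases, related proteins and inhibitors passed too, led by Dclk1 (225 ± 7.18) and the pseudokinase Camkv (198 ± 11.7).

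Of 8 calcineurin regulators and anchors, all passed. The highest were Ppia and Fkbp1a, which bind the calcineurin-inhibiting drugs cyclosporin and FK506, at 703 ± 28.9 and 336 ± 18.3 TPM, followed by Chp1 (65.4 ± 0.686) and the inhibitor Rcan2 (49.0 ± 5.98). Phosphatase 1, which acts after calcineurin in the dephosphorylation of CaMKII targets, was present with all 7 listed genes, led by its spine-targeting subunit Ppp1r9b (359 ± 10.3).

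Transcription factors downstream were measured too. Of 5 NFAT genes, 4 passed a TPM of 1 in both libraries. Nfat5, the NFAT member that does not depend on calcineurin, led at 24.6 ± 1.00 TPM, before Nfatc2 (9.16 ± 0.587), Nfatc3 (6.34 ± 0.0990) and Nfatc1 (4.26 ± 0.226). Nfatc4 stood at 1.19 and 0.63 TPM with 53 and 46 counts. All 6 CREB pathway genes passed, led by the calcineurin-responsive coactivator Crtc1 (63.3 ± 5.91). Without Nfat5, the other 4 NFAT genes summed to 20.4 and 20.9 TPM, beside 522 and 567 TPM for the catalytic subunits of calcineurin.

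The transcript tables split the 10 genes into simple and mixed ones. In 5 genes a single annotated transcript took more than 80% of the TPM in each library of the RSEM-layout transcript table, the authors' other quantification: Camk2n1-201 (its only transcript), Nrgn-201 (99.0% in each), Camk4-201 (98.9% and 98.8%), Ppp3r1-201 (98.6% and 99.0%) and Camk2b-209 (84.5% and 87.5%). For Camk4 the est_counts table gave the leading transcript 73.6% and 75.1%. It placed 26.4% and 24.1% on a transcript annotated for nonsense-mediated decay, which the RSEM-layout table held at 0.36% and 0%.

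Camk2a had 7 annotated transcripts. Camk2a-203, 4970 bases long with a coding sequence of 1434 bases, led with 714 and 778 TPM, or 60.8% and 60.1% of the gene. Next came Camk2a-207, an annotated fragment of 530 bases with incomplete ends, with 25.5% and 26.9% of TPM. TPM divides by length, and this fragment rested on 2529 and 3355 counts, or 3.16% and 3.38% of the gene's counts, while Camk2a-203 held 85.4% and 85.6% of them.

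Camk2a-201 carries the 33-base exon of the alpha-B isoform, the relative of the Camk2d and Camk2g exons printed above, and took 11.3% and 10.9%. Camk2a-202, which starts inside the gene and holds 6 exons, took 1.44% and 1.30%; the est_counts table gave it 5.41% and 4.58%.

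Ppp3ca was nearly evenly divided. Ppp3ca-201, which keeps the 30-base exon printed above, stood at 218 and 238 TPM (52.7% and 52.4%), and Ppp3ca-202, which lacks it, stood at 187 and 207 TPM (45.2% and 45.4%). The 2 transcripts also differ in the 3′ UTR, annotated at 554 bases in the first and 2502 bases in the second. By counts the order turned: Ppp3ca-201 held 34.1% and 33.9%, and Ppp3ca-202 held 65.1% and 65.3%. Since the exon and the UTR are joined in the annotation, reads of the UTR enter the estimate for the exon.

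Ppp3cb favoured the version with the exon. Ppp3cb-205 stood at 62.0 and 71.1 TPM (57.1% and 63.1%), ahead of Ppp3cb-201 at 18.7 and 14.5 TPM (17.2% and 12.9%) and Ppp3cb-202 at 16.2 and 17.0 TPM (14.9% and 15.1%). The same transcript led in both tables and by counts.

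Camk2g had 17 annotated transcripts and no clear leader. Camk2g-203 stood at 19.5 and 19.9 TPM (17.9% and 16.6%), Camk2g-201 at 16.2 and 18.3 TPM (14.9% and 15.3%), the fragment Camk2g-212 at 16.2 and 17.2 TPM (14.9% and 14.4%) and Camk2g-202 at 14.6 and 15.6 TPM (13.4% and 13.0%). In the est_counts table Camk2g-201 came first in both libraries, at 17.3% and 18.4%, before Camk2g-203 at 16.3% and 17.2%. The posterior SD deposited with the counts was 217 for the 1327 counts of Camk2g-203 in replicate 1, so these shares are loosely fixed within a library too.

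Camk2d had 28 annotated transcripts, 12 of them classed as retained introns, which took 27.0% and 29.1% of its TPM. Camk2d-206 led at 6.0 and 8.03 TPM (19.1% and 26.3%). The next places differed between the libraries: Camk2d-226 took 10.6% and 18.2%, the fragment Camk2d-220 took 18.6% and 7.86%, and the retained-intron transcript Camk2d-217 took 8.76% and 17.6%. The leader rested on 481 and 735 counts, with posterior SDs of 95.5 and 93.6 counts. The est_counts table had the same leader, at 33.2% and 30.1%. It gave Camk2d-218 12.1% and 19.4%, where the RSEM-layout table held it at 0 in both libraries.

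**Figure D2:**
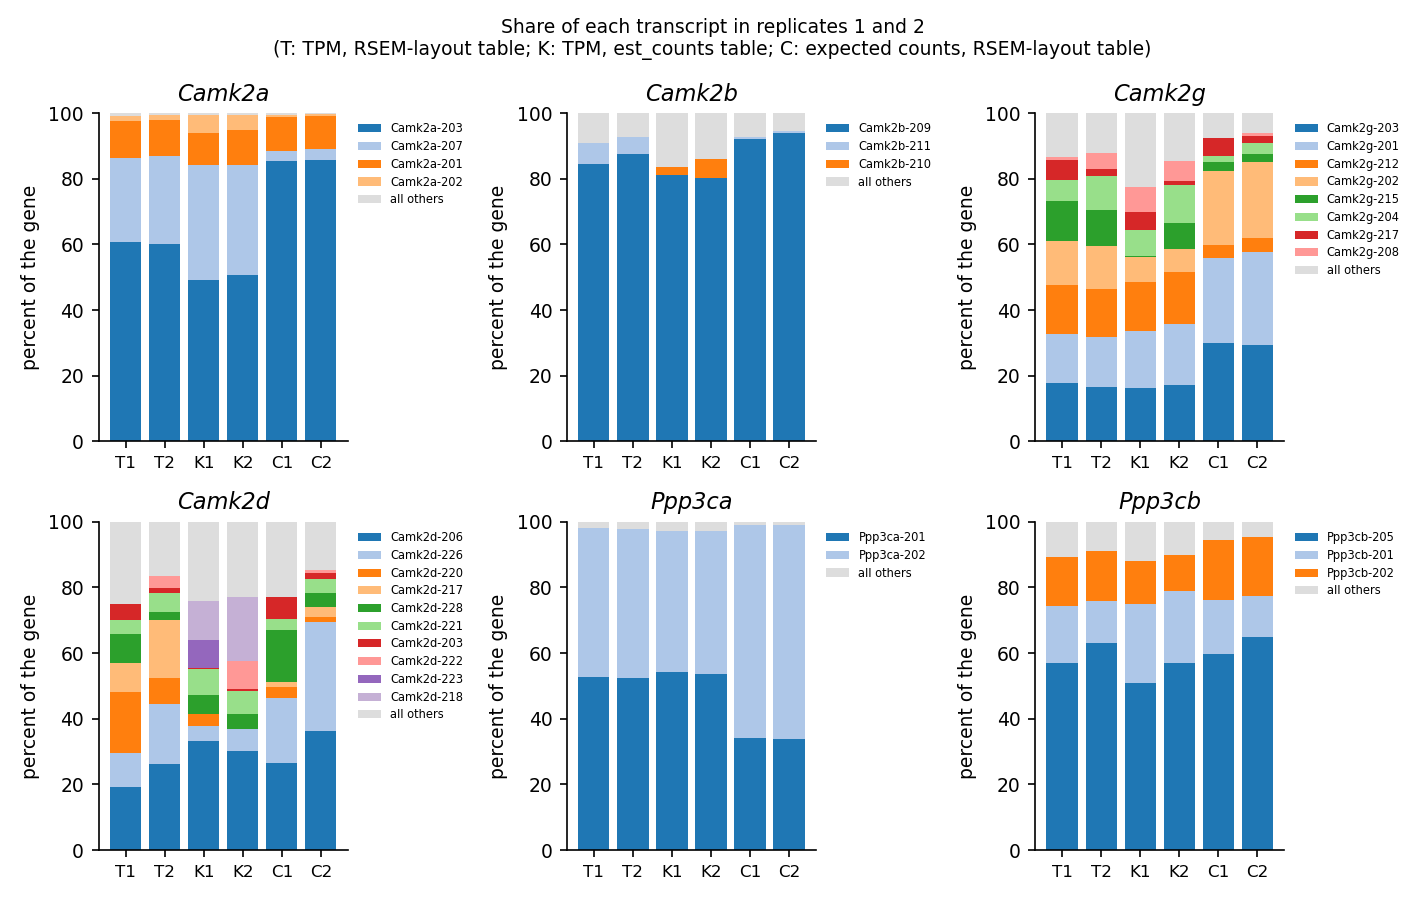
Share of each annotated transcript, in percent of its gene, for the 4 CaMKII genes and the 2 catalytic calcineurin genes; bars are replicates 1 and 2 by TPM in the RSEM-layout table (T), TPM in the est_counts table (K) and expected counts in the RSEM-layout table (C), and transcripts under 5% in every bar are pooled in grey. Camk2b and Camk2a by counts are dominated by 1 transcript, Ppp3ca is divided in a pair, and Camk2d and Camk2g are spread over many.

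Because whole-transcript shares mix several choices, each internal exon was also described by its inclusion: the TPM of transcripts that hold exactly that exon, as a percent of the TPM of transcripts that hold it or splice over it. Among the 10 genes 29 annotated exons were alternative in this sense, 25 of them overlapping an annotated coding sequence. Of these, 12 were mixed, with inclusion between 10% and 90% in both tables and both libraries: 5 in Camk2d, 4 in Camk2g, and 1 each in Camk2a, Ppp3ca and Ppp3cb. Camk2b had 8 alternative coding exons and none was mixed.

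For calcineurin A, the 30-base exon of Ppp3cb was kept at 80.7% and 85.8%, against 53.8% and 53.6% for the near-identical exon of Ppp3ca. The est_counts table gave 72.8% and 75.8% for Ppp3cb and 55.9% and 55.3% for Ppp3ca. The exon was kept more in Ppp3cb in both libraries and both tables. In counts rather than TPM the Ppp3ca value was 34.4% and 34.2%, with the UTR lengths of its 2 transcripts as given above. The 3-base choice in Ppp3cb was also mixed: transcripts with the 3 capital bases made up 39.2% and 33.6%, and 45.0% and 39.1% in the est_counts table. Only 1 annotated transcript, Ppp3cb-205, uses the downstream site, so these values restate its level relative to the other coding transcripts.

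For the kinases, the 33-base exon shared by Camk2d and Camk2g differed between its 2 genes in the RSEM-layout table. In Camk2g it was kept at 46.3% and 42.9%, with 48.3% and 46.8% in the est_counts table. In Camk2d the RSEM-layout table listed its transcripts at 0 in both libraries, whereas the est_counts table gave 15.9% and 23.3%. Most of the latter lay on Camk2d-218, a retained-intron fragment of 591 bases with 33.1 and 61.5 estimated counts, so the level of this exon in Camk2d is not settled by these tables. The corresponding exon of Camk2a was kept at 15.8% and 15.4%, with 15.3% and 16.2% in the est_counts table. In counts rather than TPM its value was 10.7% and 10.5%. The main transcripts that hold and skip it, Camk2a-201 and Camk2a-203, also differ in the 3′ UTR, annotated at 1627 and 3372 bases. Reads of the UTR therefore enter this estimate too.

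The kinase-domain pair of Camk2d was divided in the same way in every library and table. The upstream exon was used at 84.3% and 88.0%, and the downstream exon at 15.7% and 12.04%. In the est_counts table the upstream exon had 86.8% and 87.3%. Further along Camk2d, the 60-base exon was kept at 65.7% and 64.1% and the 42-base exon at 44.1% and 39.4%, with 55.6% and 46.4%, and 54.4% and 46.4%, in the est_counts table. The 60-base value includes Camk2d-217, a retained-intron transcript of 618 bases with 28.0 and 62.2 counts. The est_counts table held that transcript at 0. Over transcripts with complete annotated ends the 60-base exon was at 65.7% and 64.5%, and the 42-base exon at 55.8% and 43.4%. Complete refers to the annotated ends alone, so retained-intron and other noncoding transcripts are included. Camk2d-217 is not annotated as incomplete and stays in both values. It held 2.75 and 5.36 TPM, of the 22.04 and 25.55 TPM behind the 60-base value over all transcripts. An 89-base exon near the end of the coding sequence was kept at 36.7% and 43.5%, with 34.5% and 36.1% in the est_counts table. Its value was 49.9% and 50.1% over complete transcripts and 50.9% and 52.2% by counts.

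Camk2b kept its variable-region exons almost completely. Its exon of 45 bases was kept at 96.4% and 97.1%, that of 72 bases at 99.9% and 99.9%, and that of 75 bases at 96.2% and 96.9%. Its long exons of 114 and 129 bases stayed below 1% in the RSEM-layout table and below 2% in the est_counts table.

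The 3-base acceptor choice also differed between the subunits, although the exons begin with the same 14 bases. Camk2b transcripts with the capital bases made up 6.97% and 5.12%, and 9.95% and 7.83% in the est_counts table. In Camk2d they made up 100% in both libraries, and 98.1% and 98.4% in the est_counts table, where only 1 annotated transcript uses the downstream site.

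In Camk2g the 69-base exon was kept at 49.0% and 44.6% and the 114-base exon at 16.8% in each library. A 63-base exon gave 28.2% and 33.5%, but every transcript that holds it is annotated with incomplete ends, and over complete transcripts alone its inclusion was 0%. The 69-base exon rose to 67.1% and 65.6%, the 33-base exon moved to 38.4% and 36.0%, and the 114-base exon was at 11.4% and 4.51%, over complete transcripts.

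**Figure D3:**
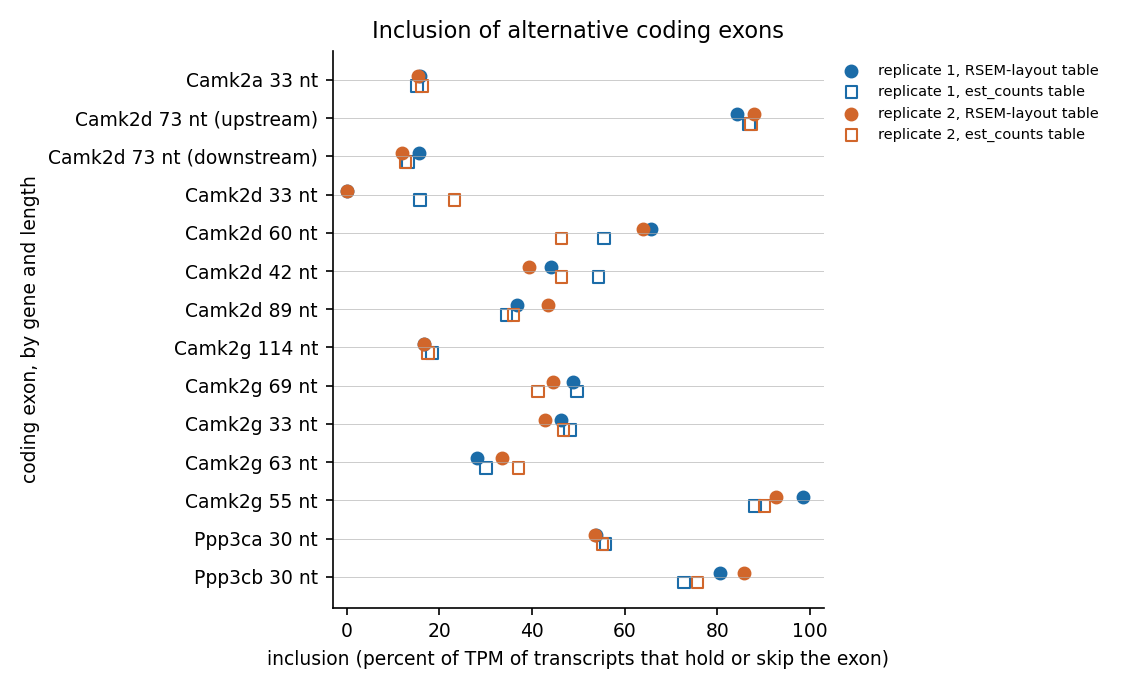
Inclusion of alternative coding exons in percent of TPM, with filled circles for the RSEM-layout table and open squares for the est_counts table, coloured by replicate; shown are exons that reach 10% in at least 1 column and are not above 90% in all. The 33-base exon of Camk2d is the one exon at 0 in one table and above 15% in the other. The exon of Camk2a stays between 15.3% and 16.2% of TPM in all 4 columns, and its lower value by counts is not plotted.

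Between the libraries the 10 genes differed about as much as other genes with many counts. The ratio of replicate 2 to replicate 1 was computed from counts scaled by the trimmed mean of M-values (TMM), over the 18897 genes whose counts averaged 10 or more. None of the 10 differed by 2-fold, beside 2.66% of all genes. The median absolute log2 ratio was 0.066 over the 10 genes and 0.12 over all genes. It was 0.068 over the 5544 genes averaging 1000 counts or more, a level that all 10 genes reached. Nrgn had the largest difference, with 13120 and 17052 counts and a log2 ratio of 0.17, and Camk2n1 the smallest, at -0.01. Camk2a stood at 0.11, Ppp3ca at 0.12, Ppp3r1 at 0.12, Camk2b at 0.07, Ppp3cb at 0.06, Camk4 at 0.05 and Camk2g at 0.03. Camk2d stood at -0.03.

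Of the 10, 8 were higher in replicate 2, beside 49.6% of all genes. ERCC scaling moved every gene up by a like amount and the median of all genes to 0.07, and 10 of the 10 were then higher, beside 64.3% of all genes; the distance of their median from that of all genes stayed at 0.07. The median log2 ratio was 0.07 over the 10 genes, -0.00 over all genes, and 0.03 over the 5544 genes averaging 1000 counts or more. With 1 group this is a description of 2 libraries.

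Markers of cell types differed between the same libraries. The median log2 ratio was 0.16 over 7 glutamatergic markers (6 higher in replicate 2), 0.12 over 8 pan-neuronal markers (7 higher) and 0.09 over 8 GABAergic markers (6 higher). It was -0.09 over 6 astrocyte markers (none higher), -0.31 over 7 oligodendrocyte markers (none higher) and -0.16 over 6 microglial markers (1 higher). The summed level of the glutamatergic markers was 800.4 and 918 TPM, that of the oligodendrocyte markers 2030 and 1648 TPM. Choroid plexus and ependymal markers summed to 28.4 and 12.4 TPM, and Folr1 fell below a TPM of 1 in replicate 2 (5.08 and 0.70). The part of these differences in the ratios of the 10 genes was not tested.

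**Figure D4:**
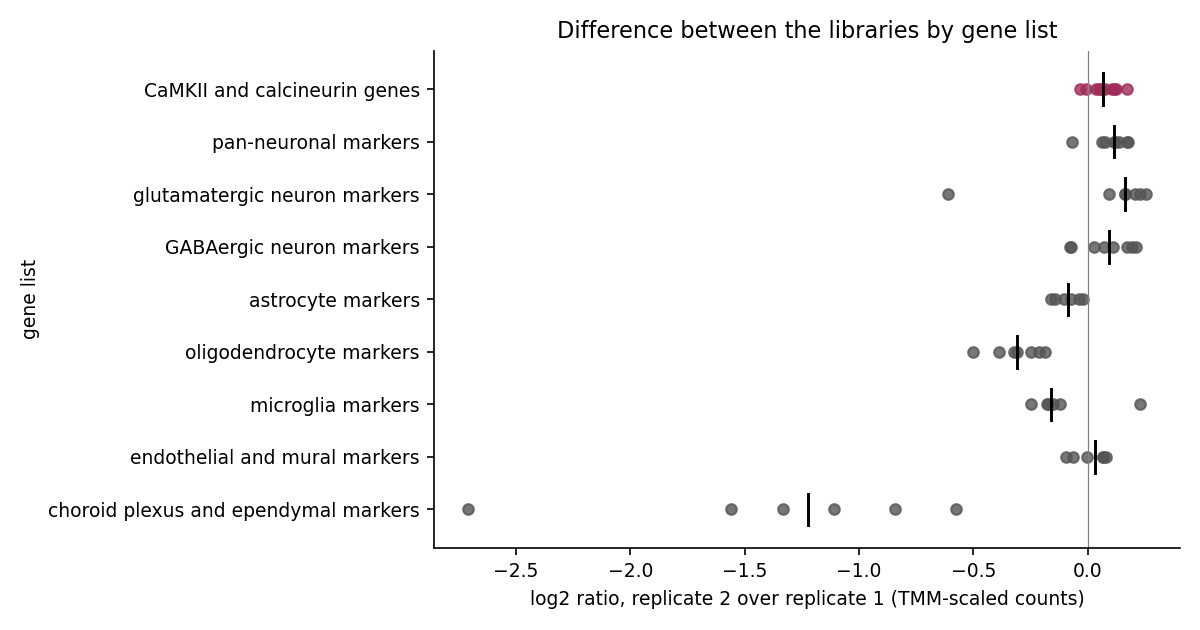
Log2 ratio of replicate 2 over replicate 1 from TMM-scaled counts, 1 point per gene, for the CaMKII and calcineurin genes and for 8 lists of cell type markers; vertical bars are medians. The CaMKII and calcineurin genes lie between -0.03 and 0.17, and the choroid plexus and ependymal markers lie farthest from 0, with a median of -1.22.

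Reads shared with other genes were few. The deposited posterior SD of the gene count was 0 in both libraries for 9 of the 10 genes. For Ppp3r1, which overlaps Wdr92 on the same strand, it was 3.10 and 2.84 counts, and Wdr92 itself stood at 3.32 and 4.71 TPM. The highest gene overlapping Ppp3ca, Gm42822 on the same strand, stood at 3.74 and 4.37 TPM.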

How the data were processed

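Total RNA of 2 hippocampal libraries was measured, in 1 group, with the replicate numbers of the labels. The authors deposited, per library and on mm10 with GENCODE M21 per the file headers and labels, expected counts, TPM and isoform percent values per gene or transcript in the RSEM layout, and estimated counts and TPM per transcript in a table with the column est_counts, the layout of kallisto. The programs behind these values, with their versions, are not given here by label or header. The deposited posterior SD came with the expected counts. The directional kit in the labels marks strand, and whether counting used it is not given. No CAST sequence was used in the reference annotation, and spike-in rows stayed in the deposited TPM sums. Rows without a gene name (26248, holding 4 and 2 counts) and 96 ERCC rows stayed out of library sizes.

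Levels are the mean and SD of deposited TPM (n = 2). Isoform shares and exon inclusion were computed from transcript TPM and the GENCODE exons, and sequences were cut from the GENCODE transcripts. Rounded counts were TMM-scaled (edgeR 4.0.16 under R 4.3.3), with a prior count of 2 and a mean count of at least 10. The ratio calculation was checked on simulated counts for 18927 genes: 100 genes raised and 100 lowered by 1.5 on the log2 scale came back with mean ratios of 1.50 and -1.46. Tables used Python and pandas. Depth was 27816845 and 32316737 expected counts. Alternatives were DESeq2 1.42.0 size factors, library size or ERCC scaling, other priors and filters, the est_counts table and other denominators; shares of counts and the exon inclusion by counts, over complete transcripts and in the est_counts table were chosen after seeing the data. The 10 genes and the 17 lists were chosen with earlier results of these data known. Named genes are the 10, the 4 highest of a list and its members below a TPM of 1, and transcripts at 5% or more of their gene (not all of these are reported here); others are marked, and genes that overlap a member were added after their values were seen. No sequence of the genes on chromosome 18 is printed, and protein sequences were not used here. No batch is given in the labels.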

Additional observations from a re-analysis of the deposited data

How the results depend on the processing

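The CaMKII sum was 1746 TPM in the est_counts table, against 1791 TPM. It was 4003 TPM when TPM were computed over nuclear protein-coding genes alone, and 1718 to 1865 TPM with either replicate left out. Leaving 1 of 2 libraries out returns the value of the other, so such ranges restate the libraries and are no further check. The Camk2a percent was 70.9% in the est_counts table and 70.04% by counts, against 68.9%, and 68.4% to 69.4% with a replicate left out. The catalytic to regulatory ratio was 2.04 in the est_counts table and 1.91 with Ppp3cc and Ppp3r2 added, against 1.89, and 1.88 to 1.89 with a replicate left out. The median log2 ratio of the 10 genes lay between 0.05 and 0.14 over 8 alternatives, and above that of all genes in each. Another scaling factor shifts every gene by a like amount, so the scaling alternatives could not change that order. The distance from all genes was 0.053 with a mean count of at least 100 and 0.097 in the est_counts table. Genes averaging 1000 counts or more were compared in the main setting alone. Camk2d turned to 0.04 and Camk2n1 to 0.06 under ERCC scaling. For 5 of 10 genes the est_counts level lay more than the SD away. The leading share moved by more than the SD for 8 of 10 genes there and for 8 by counts, with Ppp3ca-201 losing its lead by counts. Inclusion of the 14 exons plotted moved by more than the SD for 8 in the est_counts table, 11 by counts and 6 over complete transcripts. Genes with few counts per transcript, Camk2d above all, limit the isoform values. No paired analysis was possible because there is 1 group and no result comes from a test.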
